A study of Rattus norvegicus with 19 samples.

Results

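The spread of gene expression between animals of the same strain and sex was compared between Wistar and SHR rats in the paraventricular nucleus (PVN) of the hypothalamus. All 19 of the 19 libraries in the series entered this comparison, 9 from Wistar and 10 from SHR rats, and the members were every column of the raw count table. The 4 groups were Wistar male (n = 4, replicates 2 to 5), SHR male (n = 5), Wistar female (n = 5) and SHR female (n = 5). Every rat was 14 weeks old at death, was housed singly, had received a telemetry probe under ketamine and xylazine, had recovered for 2 weeks and had undergone a 1 h blood pressure recording, and females were recorded in dioestrus. No group carried an engineered allele. The tissue was punched from both sides at a diameter of 1 mm, and polyadenylated RNA was sequenced in a strand-specific way.

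The PVN holds neurosecretory cells that release vasopressin and oxytocin, and neurons that project to the brainstem and spinal cord and set sympathetic tone. SHR, the spontaneously hypertensive rat, is an inbred strain, so its animals are close to genetically identical, whereas Wistar is an outbred stock in which animals carry different alleles at many loci. A difference between 2 animals of a group can also come from the punch, from the state of the animal and from library preparation, and inbreeding removes none of these. Since whole tissue was sequenced, fewer cells of a type and less RNA per cell cannot be told apart.

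Expression was placed on the log2 CPM scale (counts relative to the TMM-scaled library total), and 17432 of 30560 genes had a mean above 5 normalized counts. Library totals lay between 44943945 and 58793511 counts. Among counts from 1 to 100, 73.9% were even. The files pair no Ensembl identifier with a symbol, so genes are given by identifier, and markers of the PVN or of other cell types were not checked. Wistar female replicates 1 and 5 and Wistar male replicate 5 stood apart in the share of counts held by the 50 most counted genes, with 20.2%, 14.2% and 13.7%, while the other 16 libraries lay between 15.8% and 18.5%. The main measures are given with and without these 3 libraries, a choice made after seeing the data.

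For each animal, the deviation of a gene was its distance from the group mean, corrected for the size of the group, and the median over genes stood for a typical gene. A typical gene deviated more in Wistar than in SHR rats, and the 3 largest median deviations belonged to Wistar animals. In Wistar females the median deviations of replicates 1 to 5 were 0.193, 0.117, 0.126, 0.143 and 0.191 on the log2 scale. In SHR females they were 0.111, 0.110, 0.144, 0.0889 and 0.129. Thus, Wistar female replicates 1 and 5 were above every SHR female, whereas the other Wistar females lay within the range of the SHR females. In Wistar males, replicates 2 to 5 had deviations of 0.105, 0.0950, 0.109 and 0.152. In SHR males, replicates 1 to 5 had deviations of 0.0866, 0.114, 0.104, 0.1003 and 0.113. Only Wistar male replicate 5 exceeded the SHR males, and the other 3 Wistar males lay within their range.

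Averaged over both sexes, the deviation was larger in Wistar by 0.0246, with a mean of 0.137 over 9 Wistar animals and 0.110 over 10 SHR animals (two-sided exact permutation test of strain labels within sex, p = 0.0463 over 31752 relabellings). Within males the difference was 0.0117 (exact permutation p = 0.460), and within females it was 0.0375 (exact permutation p = 0.0873). The smallest p a test within 1 sex allows is 0.00794. The strain difference did not differ detectably between the sexes, at 0.0257 more in females (exact permutation of sex labels within strain, p = 0.347). Females deviated more than males by 0.0385 in Wistar (exact permutation p = 0.127) and by 0.0128 in SHR (exact permutation p = 0.270), and neither difference passed 0.05. Leaving out 1 animal at a time, the difference over both sexes lay between 0.0142 and 0.0308, the latter without SHR female replicate 3, and p was under 0.05 in 8 of the 19 fits. It was 0.0182 without Wistar female replicate 1 (exact permutation p = 0.0550), 0.0181 without Wistar female replicate 5 (exact permutation p = 0.117) and 0.0142 without Wistar male replicate 5 (exact permutation p = 0.234). With all 3 of these libraries left out, it was 0.00214 (exact permutation p = 0.814), and within males it turned to -0.00908 (exact permutation p = 0.232). These libraries had the 3 largest median deviations and no SHR animal was left out with them, so a smaller difference follows by construction. Restricted to replicates 2 to 4 of every group, a choice made after seeing the data, the difference was -0.00132 (exact permutation p = 0.92).

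Deviations around a line on the replicate number gave another view, because the labels do not say what the replicate number stands for. The median deviations then became 0.126, 0.111, 0.126, 0.111 and 0.118 in Wistar females 1 to 5 and 0.0833, 0.0947, 0.144, 0.0958 and 0.113 in SHR females 1 to 5. They were 0.104, 0.0925, 0.123 and 0.125 in Wistar males 2 to 5, and between 0.102 and 0.106 in SHR males. Wistar female replicates 1 and 5 no longer stood apart, and the highest value of all belonged to SHR female replicate 3. The difference over both sexes was 0.0100 (exact permutation p = 0.136), with 0.00756 in males (exact permutation p = 0.294) and 0.0124 in females (exact permutation p = 0.310). The strain difference was 0.00489 larger in females (exact permutation p = 0.725). Animals of a group share the fitted mean or line, so their values are not fully independent, most of all in Wistar males, where a line leaves 2 degrees of freedom.

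**Figure D1:**
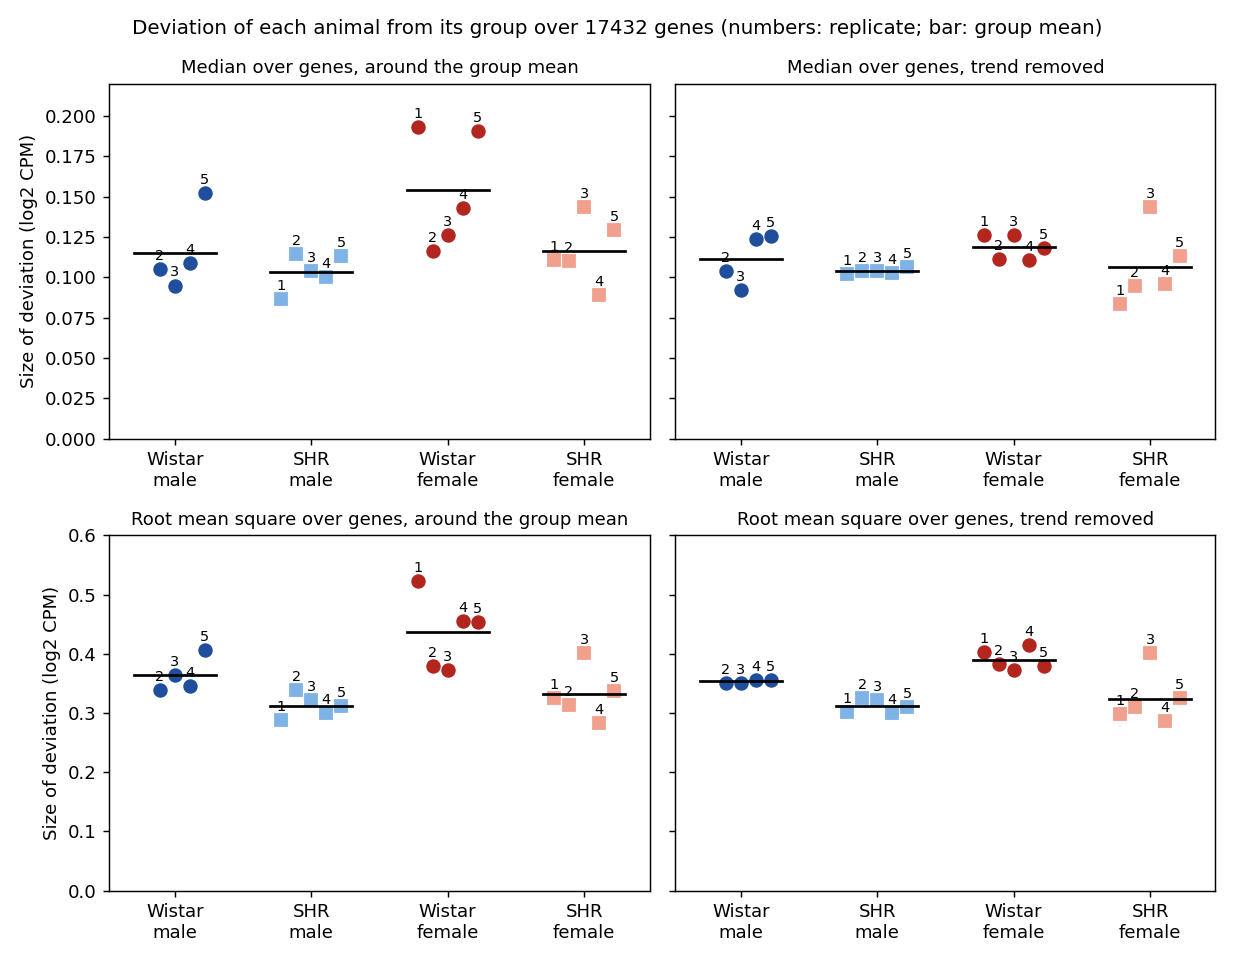
Size of the deviation of each of the 19 animals (log2 CPM), as the median over genes in the upper panels and as the root mean square over genes in the lower panels, around the group mean on the left and with the linear trend on the replicate number removed on the right. Points are animals labelled by replicate number and bars are group means. In the upper left panel Wistar female replicates 1 and 5 reach 0.193 and 0.191, and with the trend removed they fall to 0.126 and 0.118, while in the lower right panel all 4 Wistar males, between 0.351 and 0.356, lie above all 5 SHR males, between 0.301 and 0.326. The 4 Wistar male values in the right panels share a fitted line and are not independent.

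A different result was obtained when genes of large deviation were given more weight, by taking the root mean square over genes in place of the median. Wistar male replicates 2 to 5 had root mean square deviations of 0.339, 0.364, 0.345 and 0.406, and SHR male replicates 1 to 5 had 0.289, 0.338, 0.321, 0.300 and 0.312. Every Wistar male was therefore above every SHR male, although Wistar male replicate 2 and SHR male replicate 2 nearly met. Wistar female replicates 1 to 5 had 0.523, 0.380, 0.372, 0.456 and 0.454, and SHR females had 0.325, 0.314, 0.402, 0.283 and 0.338. Only SHR female replicate 3 reached into the range of the Wistar females. The difference over both sexes was 0.0782 (exact permutation p = 0.000693), with 0.0514 in males (exact permutation p = 0.0159) and 0.105 in females (exact permutation p = 0.0238).

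This measure still passed the test once the trend on the replicate number was removed. The difference was 0.0540 over both sexes (exact permutation p = 0.000409), 0.0419 in males (exact permutation p = 0.00794, the smallest possible) and 0.0662 in females (exact permutation p = 0.0317). Among males, the Wistar values (0.351 to 0.356) and the SHR values (0.301 to 0.326) then did not overlap. Wistar females lay between 0.372 and 0.415, above all SHR females except replicate 3 at 0.402. Over genes with a mean above 100 normalized counts alone, the difference over both sexes was 0.0672 (exact permutation p = 0.00913), and with the trend removed 0.0414 (exact permutation p = 0.0106). At a mean above 100 neither sex alone passed 0.05 around the group mean, with 0.0465 in males (exact permutation p = 0.0794) and 0.0879 in females (exact permutation p = 0.0635). Once the trend was removed as well, the value was 0.0350 in males (exact permutation p = 0.0238) and 0.0479 in females (exact permutation p = 0.127).

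Leaving out 1 animal at a time, the root mean square difference over both sexes lay between 0.0641 and 0.0900. It passed the exact permutation test in 19 of 19 fits. With the trend removed it lay between 0.0418 and 0.0710, and p was under 0.05 in 19 of 19 fits. In the fits without a Wistar male, however, a line through 3 animals leaves 1 degree of freedom. Those 3 animals then share 1 value, so the p of these fits cannot serve as a separate check. Within 1 sex the root mean square difference was less stable. It was 0.0297 in males without Wistar male replicate 5 (exact permutation p = 0.0714) and 0.0438 without SHR male replicate 1 (exact permutation p = 0.0571). In females it was 0.0977 without Wistar replicate 4 (exact permutation p = 0.0635) and 0.0890 without SHR replicate 4 (exact permutation p = 0.0556). After removal of the trend, p in females rose above 0.05 without Wistar replicate 1 or 4 or SHR replicate 1, 2 or 4, and the lowest difference was 0.0417 (exact permutation p = 0.183). Without the 3 libraries that stood apart, the difference was 0.0520 over both sexes (exact permutation p = 0.0105), 0.0297 in males (exact permutation p = 0.0714) and 0.0744 in females (exact permutation p = 0.0893). Within replicates 2 to 4 it was 0.0428 over both sexes (exact permutation p = 0.055), 0.0183 in males (exact permutation p = 0.3) and 0.0673 in females (exact permutation p = 0.2).

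Per gene, the ratio of the pooled within-group standard deviation (SD) in Wistar to that in SHR had a median log2 value of 0.311 (jackknife SE over animals 0.140), which is 1.24-fold, and 68.6% of the genes were more spread in Wistar. In males the median was 0.197 (SE 0.277) with 58.4% of genes more spread in Wistar, and in females 0.362 (SE 0.248) with 67.0%. The SE within each sex was thus of the order of the ratio itself. With the trend on the replicate number removed, the median over both sexes was 0.134 (SE 0.133), or 1.10-fold, with 57.2% of genes more spread in Wistar. Without the 3 libraries that stood apart, it was 0.0684 over both sexes, with 53.5% of genes more spread in Wistar, -0.0260 in males and 0.226 in females.

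By expression level, the SDs fell up to 10000 counts in both strains, while the median ratio over both sexes tended to be larger at higher levels. For 1782 genes with a mean of 5 to 20 normalized counts, the median SD was 0.734 in Wistar and 0.662 in SHR, and the median log2 ratio was 0.164 (SE 0.0349). For 2187 genes of 20 to 100 counts the log2 ratio was 0.275 (SE 0.0773), and for 2984 genes of 100 to 500 counts it was 0.326 (SE 0.123). Counting error is the largest at the lowest level and is shared by both strains. From 500 to 2000 counts (4925 genes) the log2 ratio was 0.321 (SE 0.161), and from 2000 to 10000 counts (4698 genes) it was 0.331 (SE 0.172). For 856 genes above 10000 counts the median SD was 0.118 in Wistar and 0.0894 in SHR, with a log2 ratio of 0.453 (SE 0.268). The errors of the levels come from the same animals, and no error was computed for a difference between levels. With the trend removed, the log2 ratios in the order of these levels were 0.124, 0.181, 0.188, 0.113, 0.107 and 0.163, and no rise with expression remained. In females the ratio at the highest level was 0.556 (SE 0.384) around the group mean and 0.182 (SE 0.700) with the trend removed, and in males 0.157 (SE 0.575) and 0.181 (SE 0.780). In males there was no rise with expression, as the log2 ratios in the order of the levels were 0.0864, 0.188, 0.300, 0.240, 0.132 and 0.157. Without the 3 libraries that stood apart, the log2 ratios over both sexes were 0.120, 0.154, 0.129, 0.0439, 0.0227 and -0.0740. The larger ratio of the most expressed genes was thus not seen over both sexes of the other 16 animals. Above 10000 counts the ratio was then -0.336 in males and 0.263 in females, where the levels ranged from 0.171 to 0.301.

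**Figure D2:**
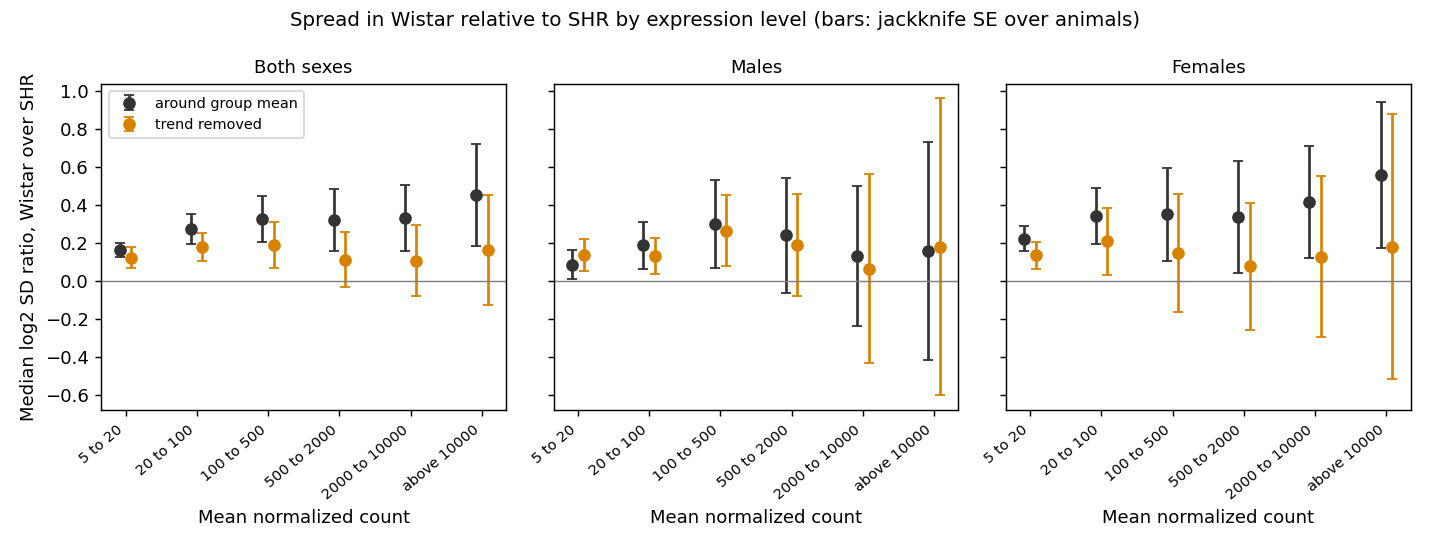
Median log2 ratio of within-group SD, Wistar over SHR (vertical axis), in 6 classes of mean normalized count (horizontal axis), for both sexes, males and females. Dark points are deviations around the group mean, orange points have the linear trend on the replicate number removed, and bars are jackknife standard errors over animals. Over both sexes the dark points rise from 0.164 to 0.453, whereas the orange points lie between 0.107 and 0.188.

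The deviations of many genes lay along 1 shared axis. The first principal component of the within-group deviations held 20.004% of their variance, against 11.1% for the second. Wistar females accounted for 38.6% of all within-group squares and for 74.2% of the squares on this component. Within Wistar females, 38.5% of the squares lay on it, compared with 9.999% for the Wistar males and with 8.06% and 7.28% for the male and female SHR groups. Wistar female replicate 1 scored 0.379, replicates 2 and 3 scored 0.0993 and 0.0451, and replicates 4 and 5 scored -0.203 and -0.320. The 14 animals of the other groups scored between -0.164 and 0.151. The line on the replicate number took 41.3% of the squares of Wistar females, where 25% corresponds to its degrees of freedom. For the Wistar males it took 37.2% (33.3% by degrees of freedom), and for the SHR groups 24.6% of male and 25.9% of female squares (25% in each).

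The score on this axis moved with the share of counts held by the 50 most counted genes. Over the 19 animals, with both measures centred by group, Pearson's r was 0.903 and Spearman's rho 0.805. Without Wistar female replicates 1 and 5, the animals farthest in that share, r was 0.789. Both measures come from the same libraries, so this correlation is a description, and the part of this share in the strain difference was not tested apart from the following values. With the first component removed, the per-animal median deviation differed by 0.00574 over both sexes (exact permutation p = 0.448), and with that share as a covariate by 0.00578 (exact permutation p = 0.460). The component was drawn from these same deviations, with 74.2% of its squares in Wistar females. Its removal thus takes most from the Wistar spread by construction. Another component was drawn from the deviations left after removal of the trend, and its division among the groups was not computed. With the trend and then this other component removed, the median deviation differed by 0.0159 (exact permutation p = 0.00671), against 0.0100 with the trend alone removed. With the first component of the deviations around group means removed, the root mean square deviation still differed by 0.0540 (exact permutation p = 0.00110).

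**Figure D3:**
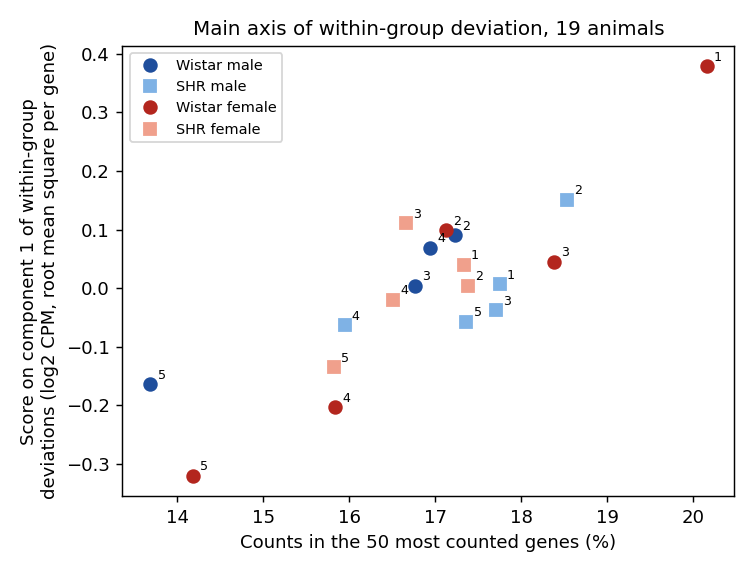
Score of each of the 19 animals on the first component of the within-group deviations (log2 CPM, per gene as a root mean square; vertical axis) against the percentage of its counts in the 50 most counted genes (horizontal axis), with points labelled by replicate number. Wistar female replicate 1, at 20.2% and 0.379, and Wistar female replicate 5, at 14.2% and -0.320, are the ends of the axis.

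The upper end of the spread was then described in 4 animals per group (replicates 2 to 5), over 13463 genes with a mean above 100 normalized counts. The median SD of males was 0.117 for Wistar and 0.112 for SHR, and that of females 0.144 for Wistar and 0.124 for SHR. At the 99th percentile the SDs were 0.661 and 0.532 in the 2 male groups and 0.762 and 0.642 in the 2 female groups, Wistar first. An SD above 1 on the log2 scale, a spread of at least 2-fold, was found for 50 genes in Wistar males and 25 in SHR males. It was found for 70 genes in Wistar females and 35 in SHR females. Such genes were thus 2-fold more frequent in Wistar than in SHR in each sex. Over every choice of 4 animals, this count ranged from 5 to 25 for the SHR males, from 70 to 136 for the Wistar females and from 7 to 41 for the SHR females, and these counts carry no test. Among replicates 2 to 4, which leaves out the 3 libraries that stood apart, it was 46 in Wistar and 32 in SHR males, and 78 in Wistar and 40 in SHR females.

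Genes that were on in some animals and off in others of the same group were also counted. All 30560 genes of the count table entered, without the filter on the mean. A gene was taken as on and off where the lowest animal had at most 3 counts and the highest at least 30 normalized counts. Among replicates 2 to 5 there were 46 such genes in Wistar males and 13 in SHR males, and 61 in Wistar females and 16 in SHR females. Over every choice of 4 animals the count was 3 to 13 for the SHR males, 61 to 104 for the Wistar females and 4 to 19 for the SHR females. A range above 4-fold at a mean above 100 was found for 69 Wistar against 32 SHR genes in males, and for 93 against 56 in females. This last count moved from 9 to 32 for the SHR males, from 93 to 188 for the Wistar females and from 17 to 57 for the SHR females over the choices of 4 animals. Among replicates 2 to 4, 27 Wistar and 10 SHR genes were on and off in males, and 44 and 8 in females. In all, 98 genes were on and off in at least 1 Wistar group, 9 of them in both sexes, and 27 were on and off in at least 1 SHR group, 2 of them in both sexes. The sets shared 3 genes among the 30560 that entered, and this overlap was not tested. Of the 98 genes, 12 were high in every SHR animal and 4 were low in every SHR animal, whereas none of the 27 genes was uniformly high or uniformly low in the Wistar animals. The share of all genes that is uniformly high or low in a strain was not counted, so these numbers are a description only.

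Each gene was tested for spread with limma on the absolute deviations of the 19 animals, with Benjamini-Hochberg adjustment over 17432 genes and a threshold of 0.05. Over both sexes, 93 genes (0.534% of those tested) had larger deviations in Wistar and 1 gene (0.00574%) had larger deviations in SHR. In males, 24 genes (0.138%) had larger deviations in Wistar and 0 (0%) in SHR, where 334 genes had an unadjusted limma p under 0.05 in the SHR direction and the variance ratio test described below called 2. In females, 86 genes (0.493%) had larger deviations in Wistar and 4 (0.0229%) in SHR. The strain difference in deviation differed between the sexes for 7 genes (0.0402%). Among the 93 genes, 90 had a larger SD in Wistar in both sexes, and 63 had a mean above 100 normalized counts. Leaving out 1 animal at a time gave 45 to 239 genes for both sexes, with 45 without SHR male replicate 3 or 5 and 239 without Wistar female replicate 2. The count was 45 to 63 without an SHR animal and 71 to 239 without a Wistar animal, so it moved with the strain that lost an animal. In the 16 animals that did not stand apart, 165 genes had larger deviations in Wistar and 3 in SHR. That fit left 3 animals in each Wistar group and 5 in each SHR group, so its count cannot be compared directly with 93.

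These calls depended on the test. Over both sexes, 4 genes were called in Wistar with deviations from the group median, 9 with squared deviations and 2 with the replicate number as a block. A ratio of pooled variances referred to the F distribution, added after seeing the data, called 123 genes (0.706%), 121 of them more spread in Wistar and 2 in SHR. With the trend on the replicate number removed it called 29 genes (0.166%), 27 in Wistar and 2 in SHR. The limma test on deviations from lines called 764 genes (4.38%), 612 in Wistar and 152 in SHR, but the same test made many false calls on simulated counts of equal spread, so its counts are given without naming genes. Around group means it made few false calls on such counts, although its unadjusted p-values were somewhat too small. Those counts were drawn independently for each gene, without an axis shared by many genes and without genes that are on and off. They therefore cannot show how many of the calls in the real data are false. Within replicates 2 to 4, limma called 0 genes over both sexes.

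The 93 genes spanned a median 3.83-fold range between the lowest and highest Wistar animal and a 1.40-fold range in SHR. The animal farthest from its group was a Wistar animal for all 93 genes. All 9 Wistar animals took part. Female replicates 1, 4 and 5 were farthest for 17, 17 and 14 genes, female replicates 2 and 3 for 5 and 6, and male replicates 2 to 5 for 6, 9, 9 and 10. The mean of SHR lay inside the range of the Wistar animals for 68 genes, above it for 16 and below it for 9. For 44 genes all 10 SHR animals lay inside the Wistar range. As the genes were chosen by this same contrast, these values are a description and carry no test.

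The gene with the smallest p, ENSRNOG00000064882, had 2 levels among Wistar animals and 1 level among SHR animals. Its normalized counts were 3.83, 143, 124 and 1.79 in Wistar male replicates 2 to 5, and 170, 162, 133, 2.01 and 0 in Wistar female replicates 1 to 5. The SHR animals ranged from 232 to 283 among males and from 242 to 294 among females. Thus, 4 Wistar animals, 2 of each sex, were at or near 0, the other 5 lay between 124 and 170, and every Wistar animal was below every SHR animal. A count of 0 allows up to 3 counts in that library, or up to 6 if both reads of a pair were counted. The SD was 3.04 in Wistar and 0.108 in SHR, and the absolute deviations differed by 2.86 (SE 0.189, limma adjusted p = 8.96e-08). The adjusted p was at most 0.00107 when any 1 animal was left out, and 0.000464 in the variance ratio test with the trend removed.

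The second gene, ENSRNOG00000005826, took intermediate values as well. It had 13.4, 21.3, 226 and 538 normalized counts in Wistar males 2 to 5, and 24.9, 302, 33.3, 18.1 and 725 in Wistar females 1 to 5. The SHR animals ranged from 1070 to 1377 among males and from 924 to 1030 among females. The Wistar animals spanned a low group of 5 animals between 13.4 and 33.3 counts and 4 animals between 226 and 725, all below the SHR range. The SD of ENSRNOG00000005826 was 2.40 in Wistar and 0.114 in SHR, with a difference in deviation of 2.24 (SE 0.207, limma adjusted p = 1.36e-05), and its adjusted p was at most 0.00189 when any 1 animal was left out.

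The gene that came next in order of p, shown here without its identifier, had 3 levels among Wistar animals. Male replicates 2, 4 and 5 and female replicate 1 lay between 1477 and 1526 normalized counts. Male replicate 3 and female replicates 4 and 5 lay between 2837 and 3263, and female replicates 2 and 3 had 10.5 and 8.88. The 10 SHR animals lay between 3088 and 4297, and only Wistar male replicate 3 entered their range. The limma adjusted p was 6.53e-05, and it rose to 0.0523 without Wistar female replicate 2 and to 0.0564 without Wistar female replicate 3, the 2 animals near 0.

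**Figure D4:**
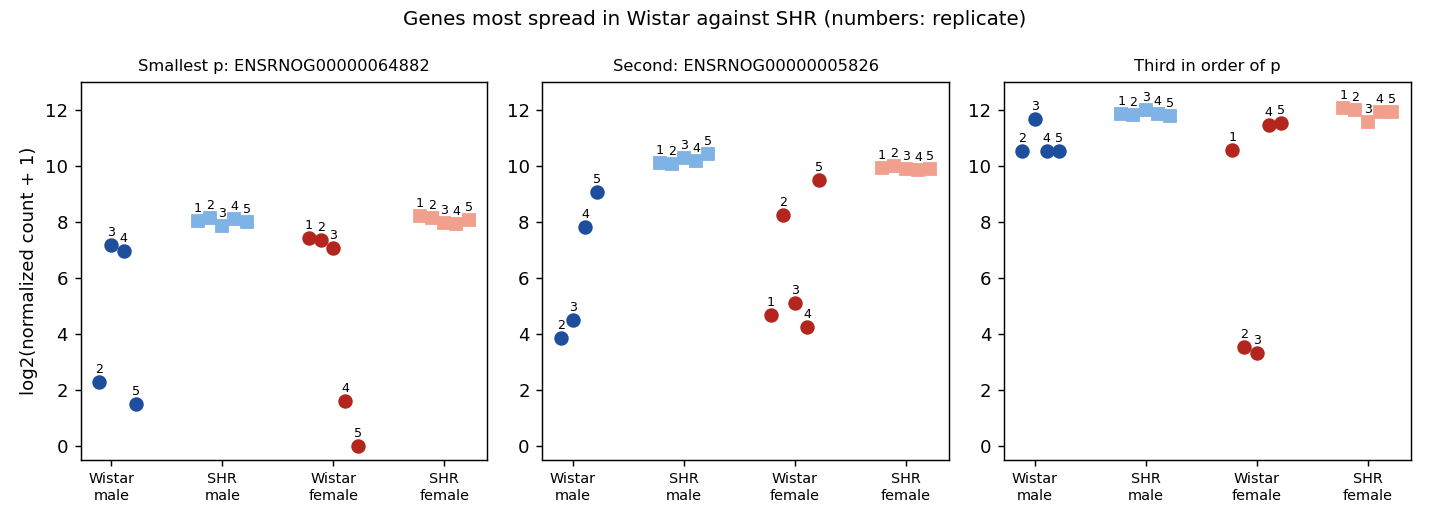
Normalized counts, as log2(normalized count + 1), of the 3 genes with the smallest p for larger deviations in Wistar, in the 19 animals by group, with points labelled by replicate number. The SHR animals form 1 level in each panel, whereas Wistar animals range from 0 to 170 normalized counts in the first gene, from 13.4 to 725 in the second and from 8.88 to 3263 in the last.

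In the opposite direction, the single gene called, ENSRNOG00000060437, rested on counts near 0. It had 570 to 732 normalized counts in the 9 males of both strains. In females it had 2 counts in each of the 5 Wistar animals, and 6, 0, 0, 6 and 0 counts in SHR replicates 1 to 5. All female values are thus at or below the limit of 6 counts that a 0 allows if both reads were counted. The SD of ENSRNOG00000060437 was 0.0675 in Wistar and 0.775 in SHR (limma adjusted p = 0.00181), and the adjusted p was 0.200 without SHR female replicate 4. The next gene in that direction, ENSRNOG00000001658, did not pass the test (limma adjusted p = 0.0890). Its normalized counts were 2463 to 3335 in the 9 Wistar animals and 2348 to 4484 in the 10 SHR animals, and the ranges overlapped.

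Calls from 1 sex were then read in the other sex. The SD ratio read there uses none of the libraries contrasted in the call, but the limma fit takes its residual spread from all 19 libraries. Of the 24 genes called in males, 19 (79.2%) were more spread in Wistar females than in SHR females, where all genes together gave 67.0%, and their median log2 SD ratio in females was 1.64, against 0.362 for all genes. Of the 86 genes called in females, 65 (75.6%) were more spread in Wistar males, against 58.4% of all genes, with a median log2 SD ratio of 1.05 against 0.197. Only 6 genes were called in both sexes, which is 25% of the male and 6.98% of the female calls. With only the libraries of 1 sex in the fit, 31 genes (0.178%) were called in Wistar in males and 2 (0.0115%) in females, with 1 gene in both. Of the 31, 29 were more spread in Wistar in females, with a median log2 SD ratio of 1.83 there, and both genes called in females were more spread in Wistar in males. Across all 17432 genes, 41.4% were more spread in Wistar in both sexes and 16.1% more spread in SHR in both sexes. These shares depend on the 58.4% of genes in males and 67.0% in females that were more spread in Wistar. They were not compared with the shares that unrelated sexes would give. The Pearson correlation of the log2 SD ratios of the sexes was 0.163. This correlation is across genes, which are not independent replicates.

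The spread was also read against the strain difference in mean expression, taken from the other sex so that no library was shared, for genes with a mean above 100 normalized counts. Folds in either direction were pooled. That mean was taken over all 19 libraries, so genes low in 1 strain could enter through the other. In males, the median log2 SD ratio was larger in the classes of larger strain fold in females. It was 0.157 (SE 0.349) for 6421 genes with a log2 fold under 0.1, 0.178 (SE 0.321) from 0.1 to 0.25, and 0.339 (SE 0.343) from 0.25 to 0.5. It reached 0.729 (SE 0.316) for 486 genes from 0.5 to 1, and 1.19 (SE 0.373) for 129 genes above 1, of which 83.7% were more spread in Wistar. With the trend removed, the first and last of these values were 0.0949 (SE 0.403) and 0.963 (SE 0.395). Leaving out 1 animal at a time moved the value of the 129 genes between 1.016 and 1.497, and that of the 486 genes between 0.549 and 0.944. The 2 classes of smallest fold changed sign, with ranges from -0.127 to 0.382 and from -0.0855 to 0.354. From the first class to the last, the median SD rose in both strains, from 0.0984 to 0.436 in Wistar males and from 0.0941 to 0.218 in SHR males.

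In females, the highest ratio was that of the genes with the largest fold in males. The log2 SD ratio was 0.426 (SE 0.259) for 5940 genes with a male log2 fold under 0.1, and between 0.297 and 0.375 in the next 3 classes. It was 0.802 (SE 0.256) for 140 genes with a fold above 1, of which 75% were more spread in Wistar. With the trend removed, the value under 0.1 was 0.150 (SE 0.397) and the value above 1 was 0.797 (SE 0.431). The median SD rose here too, from 0.134 to 0.557 in Wistar females and from 0.0998 to 0.306 in SHR females. The errors of the classes overlap, and no test was made of the differences between them.

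**Figure D5:**
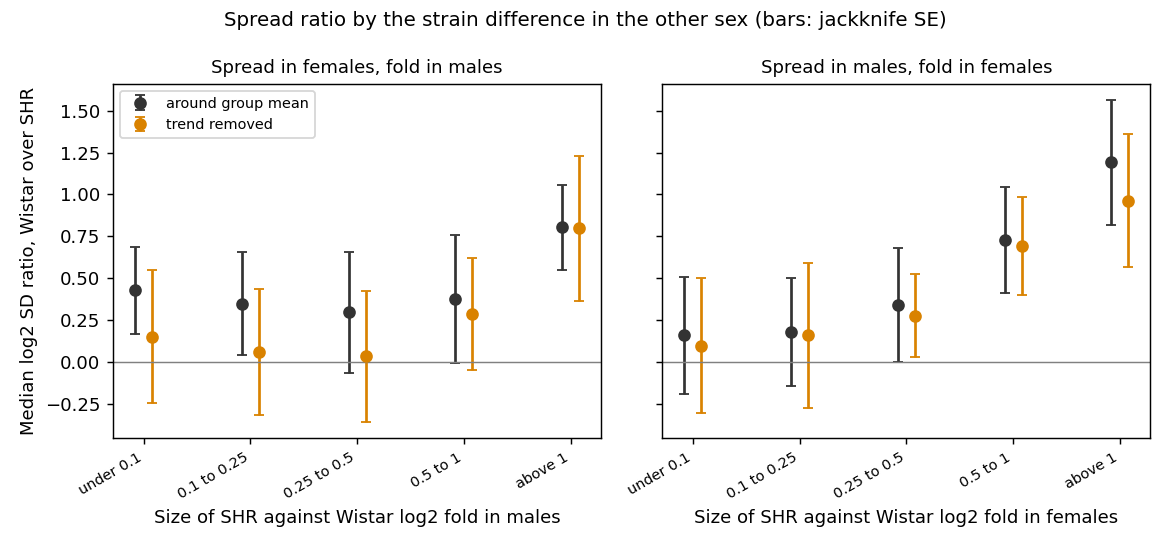
Median log2 ratio of within-group SD, Wistar over SHR (vertical axis), in classes of the size of the SHR against Wistar log2 fold in the other sex (horizontal axis), for genes with a mean above 100 normalized counts. Dark points are deviations around the group mean, orange points have the trend removed, and bars are jackknife standard errors over animals. The ratio is highest for folds above 1 in both panels, at 0.802 in females and 1.19 in males.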

How the data were processed

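Poly(A) RNA of PVN punches from 19 rats was sequenced. The authors used Trimmomatic (Phred 30) for trimming, STAR for alignment to Rn7 and featureCounts for assignment to genes, and the deposited values are raw counts per gene, without normalization. Counter settings are not given in the sources used here. Samples were grouped by their labels, and nothing in the labels says more than that replicates are separate rats. Totals of 44943945 to 58793511 counts limit the precision of low genes only, and floors cover counting error only.

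Genes with a mean above 5 normalized counts (DESeq2 1.42.0 factors) were kept, and counts were converted to log2 CPM with TMM and a prior count of 2 in edgeR 4.0.16 under R 4.3.3. Residuals from group means, or from a line per group on the replicate number, were divided by the square root of 1 minus leverage. Strain labels were permuted exactly within sex on 1 value per animal. Genes were tested with limma 3.58.1 (trended empirical Bayes) on absolute residuals, all 19 libraries in 1 fit, Benjamini-Hochberg threshold 0.05. Errors of ratios are jackknife errors over animals. Plots used matplotlib 3.10.9. The fits were tested on simulated data in which genes were drawn independently. Spread was the outcome, so no count test of means was used.

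The members, gene lists and rules were chosen with earlier results of these data known. Genes to be named were the first 2 of each direction in order of p with a mean above 100 normalized counts, since 0 identifiers matched a symbol. The gene lists and cell type markers were therefore left out, and the third gene was added after its values were seen. Alternatives changed the normalization, filter, scale, test, replicate term and libraries.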

Additional observations from a re-analysis of the deposited data

Results flagged for a closer look

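The strain difference in the size of the deviations differed between the sexes for 7 genes of 17432 tested (limma interaction of strain and sex, Benjamini-Hochberg adjusted p under 0.05). The difference was larger in males for 3 of them and larger in females for 4. At an unadjusted p under 0.05, 408 genes had a larger difference in males and 964 in females. The count of 7 was 0 with squared deviations, 1 with deviations from the group median, and between 2 and 33 when 1 animal at a time was left out.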

How the results depend on the processing

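The direction and the side of the 0.05 threshold held for the median deviation over both sexes under other scaling factors, filters without a mean minimum of 100, scales, prior counts and halved counts. Over genes above a mean of 100 the difference was 0.0206 (exact permutation p = 0.0564). It was 0.0112 with 1 slope on the replicate number common to all groups (permutation p = 0.166), 0.00574 with the first component removed (permutation p = 0.448) and 0.00578 with the top 50 share as a covariate (permutation p = 0.460). In replicates 2 to 4 it was -0.00132 over both sexes (permutation p = 0.92) and -0.0110 in males (permutation p = 0.1, the smallest possible). With the trend and then the first component of the remaining deviations removed, it was 0.0159 over both sexes (permutation p = 0.00671) and 0.0218 in females (permutation p = 0.0317). As a mean over genes it was 0.0620 in females (permutation p = 0.0476) and, with the trend removed, 0.0254 over both sexes (permutation p = 0.00746) and 0.0190 in males (permutation p = 0.00794). The Wistar male values around a line are not independent of one another, which limits these last tests.

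The median deviation without the 3 libraries that stood apart differed by 0.00214 over both sexes and -0.00908 in males.

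As a root mean square the differences were 0.0514 in males and 0.105 in females, and with the trend removed 0.0540 over both sexes, 0.0419 in males and 0.0662 in females. With a mean above 100 and the trend removed they were 0.0414 over both sexes and 0.0350 in males, while males and females around the group mean (p = 0.0794 and 0.0635 by exact permutation) and females with the trend removed (p = 0.127) lost the call. With the first component removed they were 0.0489 in males and 0.0590 in females. With the trend and then the first component of the remaining deviations removed, they were 0.0550 over both sexes (permutation p = 9.45e-05), 0.0463 in males and 0.0638 in females. Over replicates 2 to 4 the difference was 0.0428. Without the 3 libraries that stood apart it was 0.0297 in males and 0.0744 in females. Leaving out 1 animal it ranged from 0.0641 to 0.0900 over both sexes, 0.0297 to 0.0639 in males and 0.0767 to 0.129 in females, and with the trend removed from 0.0418 to 0.0710, 0.0319 to 0.0450 and 0.0417 to 0.099998. The cause of these changes was not tested.

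The median log2 SD ratio over both sexes was 0.170 with the common slope, 0.0899 with the first component removed, 0.101 with the top 50 share and 0.504 as a ratio of median variances after subtraction of counting variance at 2 counts per pair. Without the 3 libraries that stood apart it was 0.0684 over both sexes and -0.0260 in males. In replicates 2 to 4 it was 0.0168 over both sexes, -0.152 in males and 0.111 in females.

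Genes called with larger deviations in Wistar over both sexes, in males and in females, and the strain by sex count, were 93, 24, 86 and 7. They were 656, 517, 462 and 350 without a filter, 4, 3, 0 and 1 around group medians, 0, 0, 0 and 0 in replicates 2 to 4, 165, 41, 154 and 0 without the 3 libraries that stood apart, and 14, 6, 15 and 2 with the top 50 share. Leaving out those 3 libraries kept 3 animals in each Wistar group and 5 in each SHR group. Without a filter, 240, 138 and 198 genes had larger deviations in SHR over both sexes, in males and in females, and 535 with the trend removed, so that the balance of 93 to 1 became 656 to 240. With only its own libraries in the fit, the count for females was 2. With squared deviations they were 9, 9, 1 and 0. The variance ratio called 6 in males and 9 in females. Over both sexes, in females and by interaction, a mean above 100 gave 50, 45 and 3, and the common slope gave 26, 22 and 4. The first component removed gave 41 over both sexes and 11 in males, no mean trend gave 61 over both sexes and 42 in females, and robust limma gave an interaction count of 11. With the trend removed, the 612 Wistar genes became 1429 without a filter, 26 with the common slope, 0 with squared deviations and 27 with the variance ratio.

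The replicate numbers did not pair the samples throughout, although animals of number 5 deviated in a shared direction. On the first component, replicate 5 scored -0.320 in Wistar females, -0.164 in Wistar males, -0.135 in SHR females and -0.0570 in SHR males. All animals of numbers 1 and 2 had positive scores, from 0.00398 in SHR female replicate 2 to 0.379 in Wistar female replicate 1. Animals of numbers 3 and 4 had scores of both signs. What the numbers share was not tested. Of 27 same-number pairs across groups, 6 had deviations correlated above 0.1 (range -0.205 to 0.386), and 6 of 19 animals correlated best with their own number. Pairs of number 5 correlated from 0.0832 to 0.386, and the mean correlation was 0.0571 for the same number and -0.0140 for other numbers. With the replicate number as a block, the median deviation differed by 0.00247 over both sexes (permutation p = 0.810) and by -0.00823 in males, the log2 SD ratio was 0.0764 over both sexes and -0.0528 in males, and the Wistar counts were 2 over both sexes (also in place of the lines), 1 in males, 1 in females and 2 by interaction.

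Leaving out 1 animal at a time, the median deviation differed by 0.0142 to 0.0308 over both sexes, -0.00908 to 0.0228 in males and 0.0244 to 0.0498 in females. With the trend removed the ranges were 0.00125 to 0.0197, -0.00996 to 0.0228 and -0.00429 to 0.0319. The negative values came without Wistar male replicate 5, also without replicate 4 (-0.00621) with the trend removed, and in females without SHR replicate 1 or 2 (-0.000817). The log2 SD ratio ranged from 0.215 to 0.371 over both sexes, -0.0260 to 0.348 in males and 0.245 to 0.480 in females, and with the trend removed from 0.0709 to 0.228, 0.0682 to 0.544 and -0.0778 to 0.363, with -0.0303 without SHR female replicate 2. Counts ranged from 45 to 239 over both sexes, 13 to 47 in males, 20 to 621 in females, 2 to 33 by interaction and 480 to 1295 with the trend removed. Fits of genes around lines were not run with 3 animals in a group, nor around group medians or with the top 50 share. Around a line, 3 animals of a group share 1 per-animal value, and the ranges with the trend removed include such tied fits. With 4 or 5 animals a group, a spread of 1 gene rests on 3 or 4 degrees of freedom, and low counts add counting error to both strains.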
